A study of Mus musculus with 10 samples.

Results

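A set of 10 imprinted growth genes was followed in the mouse small cell lung cancer line mSCLC-2405. They are H19, Igf2, Dlk1, Meg3, Rian, Mirg, Peg3, Grb10, Cdkn1c and Plagl1, chosen by their symbols, and all 10 had a row among the 26335 rows of the table. Only 3 of them, Igf2, Peg3 and Grb10, had a mean log2 CPM above 0 and entered the test over 12306 genes. CPM expresses the reads of a gene relative to the depth of its library, so that libraries can be compared.

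The study asked what stiripentol, an antiseizure medicine, does to cultured tumor cells. The cells came from a primary lung tumor of mice with conditional gene deletions, Rb1 among them, made by an adenovirus carrying Cre, so control and treated libraries share these deletions. Cells were grown in RPMI medium with 10% FBS, and 5 control libraries (the labels name DMSO) were compared with 5 libraries after 48 h with 250 μM stiripentol. The labels do not say whether the libraries of a group are separate cultures, and p-values therefore measure only the spread between these libraries.

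The libraries were taken in 2 clusters set from their expression. The first joins controls 1 to 3 with stiripentol 3 to 5, the second controls 4 and 5 with stiripentol 1 and 2. Across the tested genes, libraries of the same group and cluster correlated at 0.983 to 0.997, and libraries of the same group in different clusters at 0.920 to 0.939. Libraries of different groups correlated at 0.881 to 0.936 in the same cluster and at 0.840 to 0.938 in different clusters. Controls 4 and 5 correlated with stiripentol 3 to 5 at 0.932 to 0.938 and with stiripentol 1 and 2 at 0.881 to 0.904. No label joins particular controls to particular treated libraries. What sets the clusters apart is not given in the sources used here, and the 3 tested members, H19 and Cdkn1c are given both over all 10 libraries and within the clusters. The clusters were known from expression, so the spread within them is small by construction. The p-values within a cluster, and those of the difference between clusters, are therefore small for many genes. Depth was 22375625 to 65299372 reads per control library and 55015760 to 60670901 per stiripentol library, with control 5 the shallowest.

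An imprinted gene is read mainly from the copy inherited from one parent, and the parental copies differ in DNA methylation at CpG dinucleotides of a control region. Paternally read genes such as Igf2 and Dlk1 generally favour growth of the fetus, and maternally read genes such as H19, Grb10 and Cdkn1c generally restrain it. Several imprinted genes are silenced in most adult tissues and are read again in tumors. Parental copies were not told apart in these libraries, so each value below is the sum of both copies.

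Sequences from RefSeq on GRCm38.p6 show where a CpG mark could lie. The promoter table held 13 windows of 300 bases, from 250 before to 50 after the start of transcription, for 8 of the 10 members, while H19 and Cdkn1c had no entry. The windows of the 3 tested members are shown for their CpG content, with each CG in capitals, and methylation itself was not measured. For Igf2, the window with the most CpG of its 4 is shown.

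Igf2, chr7:142658755-142659054, minus strand: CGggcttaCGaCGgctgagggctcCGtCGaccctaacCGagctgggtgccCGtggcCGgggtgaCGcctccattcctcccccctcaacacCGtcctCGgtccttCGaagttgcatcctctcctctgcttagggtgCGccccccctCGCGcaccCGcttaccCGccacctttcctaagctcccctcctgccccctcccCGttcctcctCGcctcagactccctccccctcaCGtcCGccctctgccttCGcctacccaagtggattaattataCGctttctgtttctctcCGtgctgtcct
Grb10, chr11:12037371-12037670, minus strand: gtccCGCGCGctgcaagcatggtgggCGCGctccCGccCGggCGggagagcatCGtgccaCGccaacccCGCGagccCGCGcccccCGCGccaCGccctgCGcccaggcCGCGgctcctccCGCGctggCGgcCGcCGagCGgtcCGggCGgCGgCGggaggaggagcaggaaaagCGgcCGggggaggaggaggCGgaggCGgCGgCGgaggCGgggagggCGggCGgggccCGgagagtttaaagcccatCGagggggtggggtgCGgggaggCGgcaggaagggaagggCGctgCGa
Peg3, chr7:6730370-6730669, minus strand: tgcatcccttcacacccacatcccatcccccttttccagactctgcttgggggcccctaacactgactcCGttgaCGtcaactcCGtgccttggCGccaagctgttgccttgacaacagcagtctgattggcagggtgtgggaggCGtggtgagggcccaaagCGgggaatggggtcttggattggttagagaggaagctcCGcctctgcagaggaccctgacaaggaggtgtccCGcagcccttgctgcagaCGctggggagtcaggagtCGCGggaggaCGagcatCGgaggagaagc

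The Igf2 window held 24 CpG, the Grb10 window 45 and the Peg3 window 13, against a median of 7 over 32851 mouse promoters. As many CpG as in the Grb10 window were found in 1.93% of all promoters, as many as in the Igf2 window in 19.98%, and as many as in the Peg3 window in 37.9%. The other 3 Igf2 windows held 2, 14 and 7 CpG, and the second Grb10 window held 9. The motif GGGCGG, a GC box, was present on either strand in the printed Igf2 and Grb10 windows and absent from the Peg3 window. It is present in 35.7% of all promoters.

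H19 and Igf2 also carry microRNAs. The mature sequences are shown because the host RNAs differed between libraries, with the seed (bases 2 to 8) in capitals. The table has no row for either microRNA gene, so only the hosts were measured.

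mmu-miR-675-5p, in an H19 exon: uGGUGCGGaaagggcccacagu
mmu-miR-675-3p, in an H19 exon: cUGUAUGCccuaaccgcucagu
mmu-miR-483-5p, in an Igf2 intron: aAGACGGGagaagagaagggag
mmu-miR-483-3p, in an Igf2 intron: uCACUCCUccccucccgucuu

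Over all 10 libraries, no tested member passed the threshold with stiripentol. Lower calls made up 14.1% of all tested genes and higher calls 13.6% (limma, adjusted p under 0.05), while 0 of 3 members were called. By limma voom on recovered reads, 0 members were called as well, and with either tool 1 member, Igf2, had an unadjusted p under 0.05. For all 3 tested members the control and stiripentol libraries overlapped. The share of all tested genes without such overlap was not counted. The levels were instead arranged by cluster and treatment together, as the plot of log2 CPM by library shows.

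**Figure D1:**
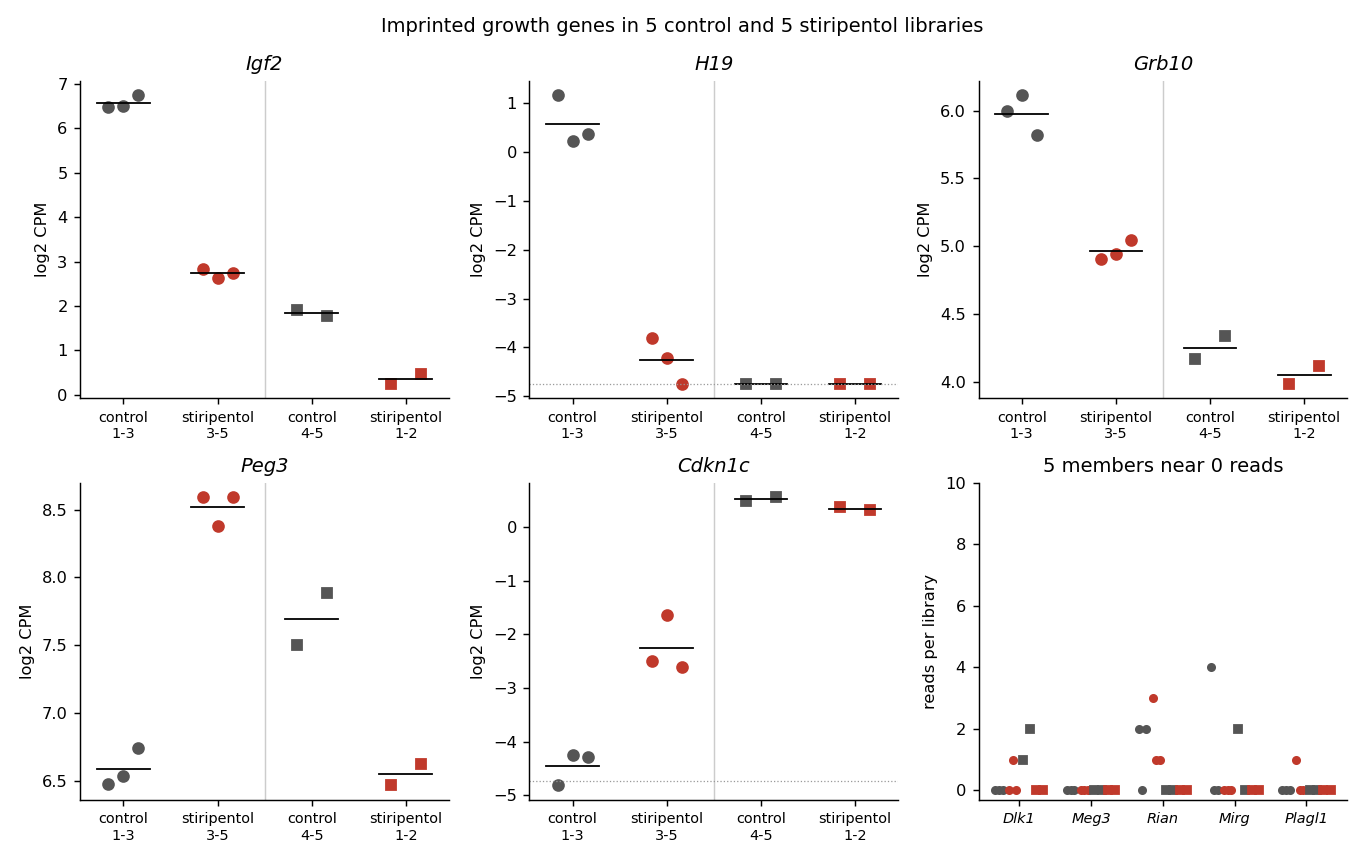
Level of each member in the 10 libraries. In the first 5 panels the vertical axis is log2 CPM, each point is a library (gray, control and red, stiripentol, with circles for controls 1 to 3 and stiripentol 3 to 5 and squares for the others), bars are means and the dotted line in 2 panels is the value of a gene with no read in 7 of the libraries. The last panel gives reads per library for the 5 members that had at most 4 reads in any library. Igf2 lay at 6.48 to 6.74 in controls 1 to 3 and at 0.25 to 2.84 in the other libraries.

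Igf2 encodes insulin-like growth factor 2, the fetal growth factor that signals through the IGF1 receptor. It lies at chr7:142650766-142666816 on the minus strand of GRCm38. In controls 1 to 5 its log2 CPM was 6.48, 6.50, 6.74, 1.91 and 1.78. In stiripentol 1 to 5 it was 0.25, 0.47, 2.84, 2.62 and 2.75. Controls 1 to 3 stood far above every other library, and controls 4 and 5 lay below stiripentol 3 to 5. The order of the levels was controls 1 to 3, stiripentol 3 to 5, controls 4 and 5, and stiripentol 1 and 2, with no overlap between neighbours.

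Over all libraries the log2 change of Igf2 with stiripentol was -2.90 (SE 1.13, adjusted p = 0.0775, limma), from a mean log2 CPM of 4.68 ± 2.59 in control to 1.79 ± 1.31 in stiripentol (SD, n = 5 each). A change as large in size was seen in 0.723% of the tested genes. The call turned on single libraries. Without control 4 the change was -3.59 (adjusted p = 0.0336), and without control 5 it was -3.62 (adjusted p = 0.0316).

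Within each cluster Igf2 was lower in the stiripentol libraries. Controls 1 to 3 were normalized apart from all other libraries. In the first cluster, treatment and that division therefore cannot be told apart. It fell from 95.6 ± 9.81 CPM in controls 1 to 3 to 6.65 ± 0.508 CPM in stiripentol 3 to 5 (SD, n = 3 each), a log2 change of -3.84 (SE 0.11, adjusted p = 2.52e-09, limma with 4 groups). It fell from 3.56 ± 0.233 CPM in controls 4 and 5 to 1.25 ± 0.135 CPM in stiripentol 1 and 2 (SD, n = 2 each), a log2 change of -1.49 (SE 0.14, adjusted p = 2.74e-06). These falls correspond to read ratios of 14.4 (95% interval 13.6 to 15.3) and 2.92 (2.39 to 3.57), intervals that cover counting error only. The fall was larger in the first cluster (interaction -2.35, SE 0.18, adjusted p = 1.71e-06, limma).

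Many genes passed these tests within clusters. In controls 1 to 3 with stiripentol 3 to 5, 26.5% of tested genes were called lower and 36.9% higher, and in controls 4 and 5 with stiripentol 1 and 2, 47% were called lower and 25.8% higher. The effect differed between the clusters for 63.3% of tested genes, and these were 2223 with a lower and 5569 with a higher effect in the first cluster as deposited, but 3716 and 3671 after quantile normalization. Against these shares, 2 of 3 members were lower and 1 was higher in the first cluster, 2 were lower in the second, and all 3 differed between the clusters. The median log2 change over all tested genes was -0.06 over all libraries, 0.08 in the first cluster and -0.25 in the second. By size, the fall of Igf2 was matched by 0.414% of tested genes in the first cluster and by 17.0% in the second.

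The untreated libraries differed in Igf2 by more than the treatment changed it. Controls 1 to 3 held 26.3 times the Igf2 reads at equal depth of controls 4 and 5 (95% interval 23.5 to 29.5), a log2 difference of 4.73. A difference as large was found in 0.0813% of tested genes. Since the clusters were known from expression, this is a description with no test.

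**Figure D2:**
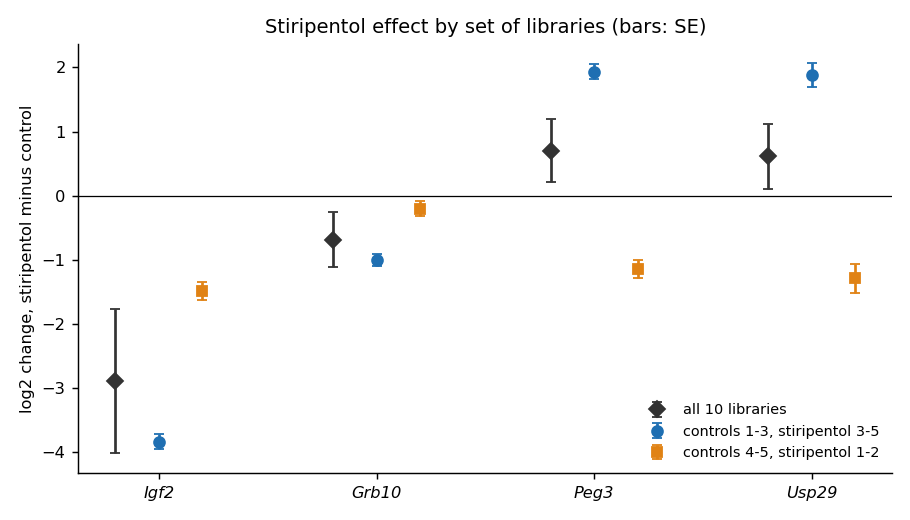
Log2 change, stiripentol minus control, of the 3 tested members and of Usp29, the neighbour of Peg3. Diamonds are all 10 libraries, circles are controls 1 to 3 with stiripentol 3 to 5, squares are controls 4 and 5 with stiripentol 1 and 2, and bars are standard errors. Igf2 lay below 0 in both clusters, while Peg3 and Usp29 lay above 0 in the first and below 0 in the second.

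H19 lies next to Igf2 at chr7:142575529-142578143 and shares its enhancers. It makes a long noncoding RNA, the host of miR-675, from the maternal copy. Controls 1 to 5 held 144, 66, 80, 0 and 0 H19 reads, and stiripentol 1 to 5 held 0, 0, 2, 1 and 0 reads. H19 was thus read at 1.53 ± 0.585 CPM (SD, n = 3) in controls 1 to 3 and at or near 0 in the other 7 libraries. It was below the filter, and over all libraries its log2 difference of -2.90 gave p = 0.167 in a two-sided exact permutation test, whose smallest possible p is 0.00794. Without control 4 or without control 5 the difference was -3.70 (exact permutation p = 0.0476). The size depends on the pseudocount, with -2.25 at 0.1 CPM and -0.78 at 1 CPM (p = 0.167 by the exact permutation test at both). With the same 2 reads added in every library, it was -3.20 (exact permutation p = 0.0556).

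In the first cluster the log2 difference of H19 was -4.84, and the exact permutation p of 0.1 is the smallest that 3 against 3 libraries allow. The read ratio of controls 1 to 3 to stiripentol 3 to 5 was 89.3 (95% interval 30.2 to 435). In the second cluster there was no read in any of the 4 libraries, so no change could be measured there. The 0 reads of controls 4 and 5 allow up to 0.0349 CPM, and H19 was at least 44.5-fold higher in controls 1 to 3, with the floor of 3 reads set over controls 4 and 5. The 3 libraries with the highest Igf2 were therefore those with the most H19 reads, although the genes are usually read from opposite parental copies.

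Igf2os, an antisense RNA that overlaps 98 exon bases of Igf2, had the same arrangement. It had 56, 57 and 45 reads in controls 1 to 3, 3 and 0 in controls 4 and 5, 0 in stiripentol 1 and 2, and 5, 5 and 6 in stiripentol 3 to 5. Strand use in the counting is not given in the sources used here, so reads of the overlap cannot be assigned between Igf2 and Igf2os. Igf2 had 5246 to 6812 reads in controls 1 to 3. The protein-coding model Gm49394 shares 3596 exon bases with Igf2 on the same strand and has no row.

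**Figure D3:**
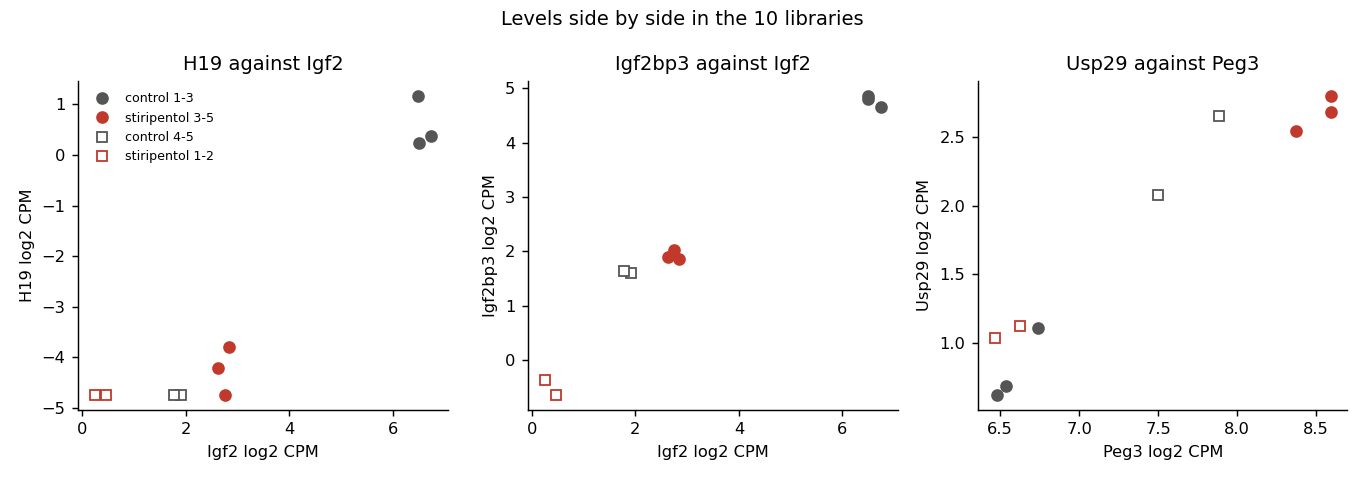
Log2 CPM of pairs of genes in the same 10 libraries. H19 and Igf2bp3 are plotted against Igf2, and Usp29 against Peg3 (gray, control and red, stiripentol, with filled circles for controls 1 to 3 and stiripentol 3 to 5 and open squares for the others). H19 was above 0 in controls 1 to 3 alone, where Igf2 was also highest.

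Grb10 encodes an adaptor that binds insulin and IGF1 receptors and restrains growth signalling. It lies at chr11:11930508-12038683 on the minus strand. Its log2 CPM was 5.99, 6.11, 5.82, 4.16 and 4.34 in controls 1 to 5. It was 3.98, 4.11, 4.90, 4.94 and 5.05 in stiripentol 1 to 5. As for Igf2, controls 1 to 3 were highest, stiripentol 3 to 5 came next, and the other 4 libraries were lowest.

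Over all libraries the log2 change of Grb10 was -0.69 (SE 0.43, adjusted p = 0.240, limma), within the spread of the libraries. In the first cluster Grb10 fell from 63.1 ± 6.41 to 31.2 ± 1.64 CPM (SD, n = 3 each), a log2 change of -1.01 (SE 0.09, adjusted p = 5.64e-06, limma with 4 groups). In the second cluster it was 19.02 ± 1.61 CPM in control and 16.5 ± 1.03 CPM in stiripentol (SD, n = 2 each), and the change of -0.20 (SE 0.12, adjusted p = 0.137) did not pass the threshold. The effects differed by -0.81 (SE 0.15, adjusted p = 0.000706, interaction, limma), and by -1.36 after quantile normalization. Controls 1 to 3 held 3.40 times the reads at equal depth of controls 4 and 5 (95% interval 3.23 to 3.59).

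Peg3 encodes a zinc finger protein read from the paternal copy and lies at chr7:6703892-6730431. Its log2 CPM was 6.48, 6.54, 6.74, 7.50 and 7.88 in controls 1 to 5 and 6.47, 6.63, 8.59, 8.38 and 8.59 in stiripentol 1 to 5. Stiripentol 3 to 5 were highest and controls 4 and 5 next. Controls 1 to 3 and stiripentol 1 and 2 overlapped at the bottom of the range.

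Over all libraries Peg3 gave a log2 change of 0.70 (SE 0.49, adjusted p = 0.294, limma). Within the clusters as joined here, the changes had opposite signs. In the first cluster Peg3 rose from 96.2 ± 9.30 to 368 ± 31.0 CPM (SD, n = 3 each), a log2 change of 1.94 (SE 0.11, adjusted p = 1.76e-07, limma with 4 groups). In the second it fell from 209 ± 38.9 to 93.5 ± 7.33 CPM (SD, n = 2 each), a log2 change of -1.15 (SE 0.14, adjusted p = 1.72e-05). The difference of 3.08 between the effects (SE 0.18, adjusted p = 3.40e-07, interaction, limma) was matched in size by 2.45% of tested genes. Opposite signs in the clusters were found for 37.0% of all tested genes.

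Usp29, which starts next to Peg3 and is read from the paternal copy on the other strand, had the same arrangement. Its mean log2 CPM was 0.80 in controls 1 to 3, 2.37 in controls 4 and 5, 2.68 in stiripentol 3 to 5 and 1.08 in stiripentol 1 and 2. It rose in the first cluster with a log2 change of 1.88 (SE 0.19, adjusted p = 8.42e-06, limma) and fell in the second with -1.29 (SE 0.23, adjusted p = 0.000346). The arrangement was not limited to this domain. Cobl, a listed neighbour of Grb10, followed Peg3 and not Grb10, with changes of 1.19 in the first cluster and -1.11 in the second. Its mean log2 CPM was 4.93 in controls 1 to 3, 5.89 in controls 4 and 5, 6.11 in stiripentol 3 to 5 and 4.78 in stiripentol 1 and 2.

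Cdkn1c encodes p57Kip2, an inhibitor of cyclin-dependent kinases read from the maternal copy. It lies at chr7:143458339-143461050, in the domain beside that of Igf2. It had 0, 1, 1, 86 and 32 reads in controls 1 to 5 and 76, 70, 8, 17 and 7 reads in stiripentol 1 to 5. Its order was opposite to that of H19, with the second cluster highest whether treated or not. Over all libraries its log2 difference was 1.25 (p = 0.437, two-sided exact permutation test), but 0.72 with a pseudocount of 0.1 CPM and 0.09 with 1 CPM.

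In the first cluster Cdkn1c had 2 reads in 3 control libraries and 32 reads in 3 stiripentol libraries, a log2 difference of 2.20 (exact permutation p = 0.1, the smallest possible). The read ratio was 17.3, with a wide counting interval of 4.42 to 149. In the second cluster Cdkn1c was 1.39 ± 0.0552 CPM in control and 1.23 ± 0.0320 CPM in stiripentol (SD, n = 2 each), and the log2 difference was -0.17 (exact permutation p = 0.333, the smallest possible). Controls 4 and 5 held 128 times the reads at equal depth of controls 1 to 3 (interval 34.7 to 1072). The antisense gene Gm44732 overlaps 625 exon bases of Cdkn1c and had 4 reads in all libraries together.

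Dlk1, Meg3, Rian and Mirg lie in an imprinted domain of chromosome 12, with Dlk1 at chr12:109452823-109463336 and Mirg ending at position 109749460. Dlk1, a transmembrane relative of the Notch ligands, is read from the paternal copy, and Meg3, Rian and Mirg are maternal noncoding RNAs, with Mirg the host of many microRNAs. Meg3 had 0 reads in all 10 libraries, which allows up to 0.00532 CPM. Dlk1 had 1 and 2 reads in controls 4 and 5, 1 read in stiripentol 4 and none elsewhere. Rian had 2, 0 and 2 reads in controls 1 to 3, 3, 1 and 1 in stiripentol 3 to 5 and none elsewhere. Mirg had 4 reads in control 1 and 2 in control 4 and none elsewhere.

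Plagl1, a zinc finger transcription factor of chromosome 10 that is read from the paternal copy, had a single read, in stiripentol 3. Over all libraries no difference between groups was detectable for these 5 genes at this depth. Two-sided exact permutation tests on the deposited values gave p = 0.722 for Dlk1, 0.444 for Mirg, 0.651 for Rian and 0.119 for Plagl1. These p-values depend in part on the value given to no read, since for Meg3 the deposited values differ only because a gene with no read was set to -4.82 in controls 1 to 3 and to -4.74 in the other libraries. Run within clusters without the filter, limma called Meg3 on this difference alone (adjusted p = 0.0314) and Dlk1 on 3 reads in controls 4 and 5 (adjusted p = 0.0475), and its calls for genes with few reads were not used.

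The genes whose levels followed a tested member most closely over the 10 libraries are given as a description. For Igf2 these were Evc2 (Pearson r = 0.999) and Mrc2 (r = 0.996), for Peg3 they were Mllt11 (r = 0.990) and Pot1a (r = 0.988), and for Grb10 they were Pus7 (r = 0.994) and Naf1 (r = 0.993). The libraries form clusters, so these values largely describe 4 cluster-by-treatment levels rather than 10 independent points. None of the 6 genes passed the threshold over all libraries, with adjusted p from 0.0805 for Evc2 to 0.449 for Mllt11 (limma).

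The signalling list for IGF2 and DLK1 held 12 genes, all tested, of which 5 were lower and 1 was higher with stiripentol over all libraries. Igf2bp3, an RNA-binding protein that binds Igf2 mRNA, fell by 2.56 (SE 0.85, adjusted p = 0.0461, limma), a call lost in 7 of the 10 fits that leave out a library, all but those without control 4 or 5 or stiripentol 5. Its mean log2 CPM followed the order of Igf2, at 4.77 in controls 1 to 3, 1.92 in stiripentol 3 to 5, 1.62 in controls 4 and 5 and -0.50 in stiripentol 1 and 2. Irs1 and Irs2 pass on the signal of insulin and IGF receptors, and Irs1 fell by 2.11 (adjusted p = 0.000732) and Irs2 fell by 1.28 (adjusted p = 0.0209, lost without control 3 or stiripentol 2). The receptor gene Igf1r fell by 0.81 (adjusted p = 0.000996).

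Igf1r, Irs1 and Irs2 showed no overlap between control and stiripentol libraries, while Igf2 did. How common this is among all tested genes was not counted. The fall of Irs1 was larger in the second cluster, at -2.80 against -1.65 in the first (interaction adjusted p = 0.00124), and so was that of Irs2, at -2.15 against -0.71 (0.000893). Igf2r, the imprinted receptor that clears IGF2, rose by 0.75 (SE 0.23, adjusted p = 0.0333). This call ended in 8 of the 10 fits that leave out a library, all but those without control 4 or 5, and in the second cluster the change of 0.23 did not pass (adjusted p = 0.167). Its mean log2 CPM was 6.79 in controls 1 to 3, 7.74 in controls 4 and 5, 7.88 in stiripentol 3 to 5 and 7.96 in stiripentol 1 and 2, which is the reverse of Igf2 in the controls. Without control 2, control 3 or stiripentol 2, the list had 3 lower and 0 higher genes. The list had a median log2 change of -0.25, beside -0.06 for all tested genes.

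Among 22 neighbours in the members' imprinted domains, 17 had a row, 8 were tested, 3 were lower and 0 were higher. The 3 were Dhcr7, an enzyme of cholesterol synthesis, at -1.09 (adjusted p = 0.0127), the lipid-binding Osbpl5 at -1.03 (adjusted p = 0.00146) and the histone chaperone Nap1l4 at -0.57 (adjusted p = 0.0307, lost without control 1, 2 or 3 or stiripentol 1 or 2). The fall of Dhcr7 was -0.47 in the first cluster and -2.02 in the second (interaction adjusted p = 1.41e-05), and that of Osbpl5 was -0.73 and -1.49 (0.000468). All 3 lie near Cdkn1c on chromosome 7. The antisense RNA Kcnq1ot1 of that domain did not pass, at 0.38 (adjusted p = 0.468). The median of the list was -0.25, with 3 lower and 3 higher genes in the first cluster and 7 lower and 1 higher in the second.

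Of 37 imprinted genes in other domains, 35 had a row, 20 were tested, 4 were lower and 3 were higher, with a median of -0.01. Peg10, a retrotransposon-derived gene read from the paternal copy, fell by 2.72 (SE 0.47, adjusted p = 0.00268), and the noncoding RNA Peg13 fell by 1.47 (adjusted p = 0.00413). Snrpn, a splicing protein gene of the Prader-Willi region, rose by 1.14 (adjusted p = 0.0163), and Mcts2, a retrogene, rose by 0.87 (adjusted p = 0.00355). Peg13 changed by -0.86 in the first cluster and -2.40 in the second (interaction adjusted p = 2.42e-05), and Snrpn by 1.48 and 0.62 (0.0160). For Peg10 the fall was alike in both clusters, at -2.83 and -2.55, and the difference of -0.29 (SE 0.22) did not pass (adjusted p = 0.265).

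Among 18 factors that keep or erase imprints, 15 were tested, 2 were lower and 1 was higher, with a median of -0.20. Yy1, a zinc finger factor, fell by 0.75 (adjusted p = 0.000731), Zfp445, a protector of imprints, fell by 0.52 (adjusted p = 0.0458, lost in 8 of the 10 fits that leave out a library, all but those without control 4 or stiripentol 5), and Ehmt2, a histone H3 methyltransferase, rose by 0.44 (adjusted p = 0.0134).

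**Figure D4:**
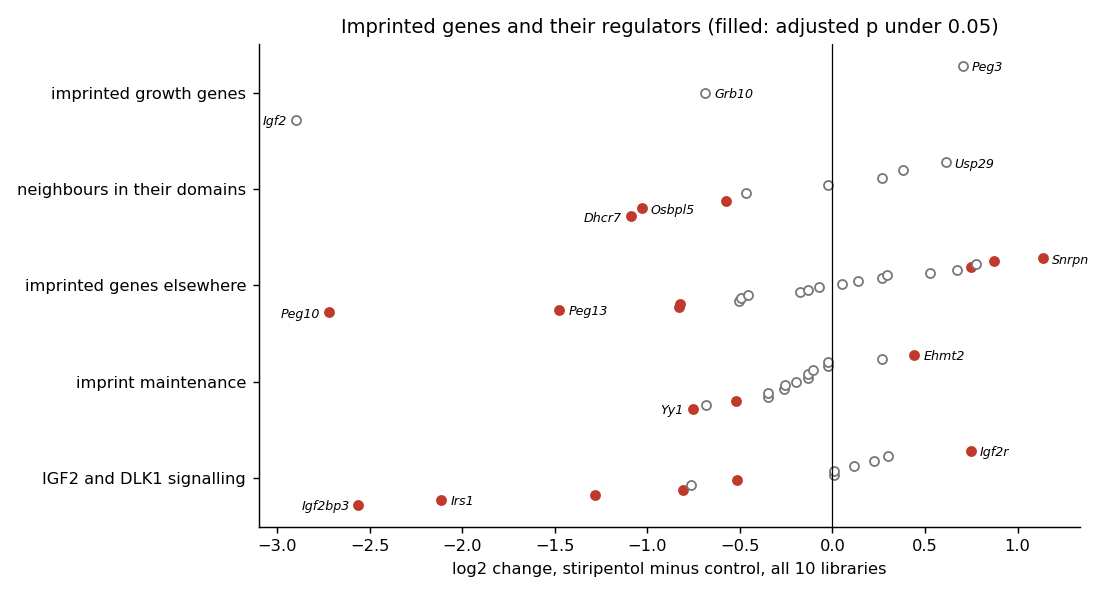
Log2 change over all 10 libraries (horizontal axis, stiripentol minus control) for each tested gene of 5 lists, with filled points for an adjusted p under 0.05 (limma). The vertical offset within a list only orders the genes. None of the 3 growth genes is filled, while Peg10, Igf2bp3 and Irs1 are filled at changes beyond -2.

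Markers of cell types were checked beside these genes. Of 10 neuroendocrine markers, 7 had a row and 2 were tested. Ncam1, a cell adhesion molecule, rose by 0.46 (adjusted p = 0.00911, limma). The list summed to 93.5 to 120 CPM in control and 127 to 157 CPM in stiripentol. Markers of other small cell lung cancer states (2 of 5 tested) included Avil, which rose by 5.01 (adjusted p = 0.000327), and Yap1, which fell by 0.87 (adjusted p = 0.0250, lost without control 1, 2 or 3 or stiripentol 2), with sums of 150 to 179 and 74.4 to 176 CPM. Below the filter in that list, Pou2f3 (log2 difference -3.52) and Trpm5 (-1.65) lay lower in every stiripentol library than in any control library, opposite to Avil. Pou2f3 had 596 reads in control and 45 in stiripentol, and Trpm5 had 59 and 16. For Trpm5 the lowest control was at -2.38 log2 CPM and the highest stiripentol library at -2.45. The share of all genes without overlap was not counted.

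Fibroblast markers summed to 5350 to 8542 CPM in control and 5059 to 9245 CPM in stiripentol. Most of each sum was Fn1, at a mean log2 CPM of 12.6, which did not pass at 0.08 (adjusted p = 0.799, limma). Of 10 such markers 8 were tested, 4 were lower and 0 were higher over all libraries. In the first cluster 5 were lower and 1 was higher, and in the second 5 were lower and 2 were higher. Thy1 and Lum had at most 1 and 3 reads in any library. Col1a1, Pdgfra, Pdgfrb and Acta2 had a mean log2 CPM of 6.32, 5.68, 6.38 and 6.18. Col1a2, Dcn and Col3a1 had 2.11, 2.36 and 4.06. Col3a1 fell by 5.71 (SE 0.77, adjusted p = 0.000746), and its mean log2 CPM was 8.27 in controls 1 to 3, 4.88 in controls 4 and 5, 0.71 in stiripentol 3 to 5 and 1.93 in stiripentol 1 and 2. Like Igf2, Col3a1 was highest in controls 1 to 3, and its part in the result for Igf2 was not tested.

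Leukocyte markers summed to 6.41 to 18.6 CPM in control and 58.9 to 103 CPM in stiripentol. Most of each sum was Cd68, which rose by 3.21 (adjusted p = 0.000819, limma). Lyz2, the other tested marker of the list, did not pass at 0.41 (adjusted p = 0.648). Ptprc, which marks all leukocytes, had at most 3 reads in any library. Lung epithelial markers summed to 8.89 to 16.4 and 1.83 to 4.76 CPM, and Foxj1 fell by 2.02 (adjusted p = 0.00408). Endothelial markers summed to at most 1.20 CPM in any library and none was tested. The part of these markers in the results was not tested, and in bulk libraries fewer cells of a type and less RNA per cell cannot be told apart.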

How the data were processed

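Cultured mSCLC-2405 cells were measured by RNA sequencing in 5 control and 5 stiripentol libraries. The authors deposited a table of log2 CPM values, normalized with GENAVi per the methods, with the build mm10 in the submitters' processing notes. The aligner, annotation and strand use are not given in the sources used here. The labels name TruSeq total RNA libraries and the methods a Lexogen 3′ kit, so levels of single genes were not ranked against each other, and marker sums only add their CPM. A further 10 deposited columns, the authors' group means, p-values and ratios, were not used. All values of up to 1000 reads came back as whole reads (within 0.1), and totals were 22375625 to 65299372 reads. The value for no read differs between controls 1 to 3 and the other libraries, so these were normalized in 2 sets, which touches genes near 0.

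Groups were compared with limma 3.58.1 (R 4.3.3, mean-variance trend) on log2 CPM as given, over the 12306 genes with a mean above 0, with Benjamini-Hochberg adjustment and a threshold of 0.05. Within clusters, 1 model of 4 groups was used. Members below the filter had two-sided exact permutation tests, over 252 arrangements for all libraries. These were also run with the same 2 reads added in every library. In 42 symbols the table has more than 1 row, and none is a member. Figures and tables used Python 3.11.15, pandas 2.3.3 and matplotlib 3.10.9, positions GENCODE M21 on GRCm38.

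The members and lists were chosen with earlier results of these data known. Named genes are the members, the best-read markers, and up to 4 called genes with the largest change in each list. The 2 genes most like each tested member are named too. Usp29, Cobl, Kcnq1ot1, Igf2os, Igf2r, Lyz2, Pou2f3, Trpm5, Col1a1, Acta2, Dcn and markers at or near 0 reads were named after their values were seen. Same-numbered libraries deviated from their group means with correlations of -0.240 to 0.061, so the numbers do not pair them. The fit was checked on simulated data. Alternatives were pseudocounts of 0.1 and 1 CPM, no filter and a stricter one, quantile and median-of-ratios scaling, voom, no trend, a block on the replicate number, a cluster term, each cluster alone and fits without each library. The results of some named items are not reported here.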

Additional observations from a re-analysis of the deposited data

Results flagged for a closer look

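The effect of stiripentol differed between controls 1 to 3 with stiripentol 3 to 5 and controls 4 and 5 with stiripentol 1 and 2 for all 3 tested members, by the interaction test of limma. The difference was -2.35 for Igf2, where both clusters fell, 3.08 for Peg3, where the first rose and the second fell, and -0.81 for Grb10, where the fall passed the threshold in the first alone. The same test was passed by 63.3% of all tested genes. It uses clusters set from expression, so the spread it rests on is small by construction. Of 20 groups of 5 values examined for a library far from the others, 3 stood out, where chance gives about 1. They were Dlk1 in stiripentol 4 at -4.21 log2 CPM (1 read), Plagl1 in stiripentol 3 at -4.19 log2 CPM (1 read), and the total of control 5 at 22375625 reads. The first 2 are single reads in groups otherwise without a read.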

How the results depend on the processing

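With all libraries, 3414 genes and 0 members were called. With a replicate block on the library numbers, which do not pair the libraries, 2082 genes and 0 members were called, and the imprint maintenance list had 1 called gene in place of 3. With a cluster term the counts were 6244 and 2 (Igf2 and Grb10, both lower), with controls 1 to 3 and stiripentol 3 to 5 alone 7959 and 3, and with controls 4 and 5 and stiripentol 1 and 2 alone 8884 and 2. In the latter alone Peg3 reversed to -1.15 and Cdkn1c to -0.17 (exact permutation p = 0.333), and H19 had no reads there and gave no value. Leaving out 1 library gave 2389 to 3320 genes and 0 to 1 members, the 1 being Igf2 without control 4 or control 5. H19 passed (exact permutation p = 0.0476) without either of the same controls. The change ranged from -3.62 to -2.38 for Igf2, 0.49 to 1.02 for Peg3, -0.97 to -0.48 for Grb10, -3.70 to -2.22 for H19 and 0.66 to 2.01 for Cdkn1c when 1 library was left out. Genes with a different effect between clusters numbered 7792, or 6858 to 8738 without 1 library. The difference between clusters moved from -0.81 to -1.36 for Grb10 after quantile normalization. Pseudocounts of 0.1 and 1 CPM gave -2.25 and -0.78 for H19 and 0.72 and 0.09 for Cdkn1c. Without the filter Igf2bp3, Igf2r, Nap1l4 and Zfp445 were no longer called, and the same 4 were lost with the replicate block, along with Ehmt2, Snrpn and Yap1. Other scalings, filters, pseudocounts, voom and the fit without trend left all 3 tested members on the same side of the threshold and in the same direction. Depth limits Dlk1, Meg3, Rian, Mirg and Plagl1, with at most 4 reads in a library.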
